A study of Mus musculus with 20 samples.

Results

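The cornified envelope and epidermal barrier genes were followed through mouse embryonic development, in whole wild-type C57BL/6 embryos of mixed sex taken without the amnion. The genes were chosen by name, with earlier results of these data known. They were the genes whose symbol starts with Sprr or with Lce and a digit, with Flg, Hrnr, Ivl, Lor, Dmkn, Krtdap, Calm4, Tgm1, Tgm3, Cnfn, Casp14, Sbsn, Stfa3, Klk5, Klk7, Alox12b, Aloxe3, Abca12 and Elovl4. The rule found 43 genes, measured by 53 probe sets, among the 18194 genes of the array. They were 9 small proline-rich (Sprr) genes, 15 late cornified envelope (Lce) genes and 19 others. Embryos of 8 stages, named by embryonic day, were measured on 20 arrays: E7.5 (3 arrays), E8.5 (3 arrays), E9.5 (3 arrays), E10.5 (3 arrays), E12.5 (2 arrays), E14.5 (2 arrays), E16.5 (2 arrays) and E18.5 (2 arrays). No embryo was treated or carried a mutation, so the comparisons are between stages. Each sample was RNA pooled from several whole embryos, and nothing in the labels says how pools were separated by litter, so p-values measure the spread between pools.

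The cornified envelope is the layer of crosslinked protein that replaces the plasma membrane of keratinocytes as they become the dead squames of the stratum corneum. Precursor proteins such as loricrin, involucrin and the Sprr and Lce families are joined by transglutaminases, filaggrin-type proteins bundle the keratins inside, and ceramides are attached to the outside. In the mouse, keratinocytes stratify from mid-gestation and the skin becomes impermeable shortly before birth. Many of the precursor genes lie next to each other in the epidermal differentiation complex on chromosome 3. Periderm, oral, oesophageal and forestomach epithelia use several of the same genes.

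Of the 43 genes, 28 lay on chromosome 3 over 1253 kb (build GRCm38.p6). The Lce genes covered 373 kb and the Sprr genes 147 kb of it, with Lor, Ivl, Flg and Hrnr around them. Outside it, Sbsn, Dmkn and Krtdap lay within 58.4 kb of chromosome 7. The remaining genes were on chromosomes 1, 2, 7, 9, 10, 11, 13, 14 and 16. RefSeq promoter windows of 250 bases before to 50 bases after a transcription start (same build) were held for 40 of the 43 genes, in 43 windows. Of these, 6 are shown because the results below set Lor, Ivl and Sprr1b, with a first high stage of E16.5, beside Flg and Lce1a2, with a first high stage of E18.5, and because Lce1a1 and Lce1a2, which flank Lce1b, are described below with their steps. They were picked after their matches and values were seen. Capitals mark the letters TGANTCA (the core that AP-1 factors bind) and TATAAA (the TATA box).
Lor (chr3:92083093-92083392, minus strand): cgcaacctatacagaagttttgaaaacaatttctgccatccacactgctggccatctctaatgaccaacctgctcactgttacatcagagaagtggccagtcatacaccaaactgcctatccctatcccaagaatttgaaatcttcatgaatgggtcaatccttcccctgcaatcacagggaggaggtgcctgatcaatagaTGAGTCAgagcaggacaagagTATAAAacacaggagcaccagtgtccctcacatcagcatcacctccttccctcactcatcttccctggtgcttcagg
Ivl (chr3:92573686-92573985, minus strand): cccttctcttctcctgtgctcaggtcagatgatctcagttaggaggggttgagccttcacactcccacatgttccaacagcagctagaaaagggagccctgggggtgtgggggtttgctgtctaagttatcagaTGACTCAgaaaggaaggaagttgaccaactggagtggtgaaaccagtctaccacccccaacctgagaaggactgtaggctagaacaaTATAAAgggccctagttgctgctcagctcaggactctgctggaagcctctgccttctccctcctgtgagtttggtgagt
Sprr1b (chr3:92438730-92439029, minus strand): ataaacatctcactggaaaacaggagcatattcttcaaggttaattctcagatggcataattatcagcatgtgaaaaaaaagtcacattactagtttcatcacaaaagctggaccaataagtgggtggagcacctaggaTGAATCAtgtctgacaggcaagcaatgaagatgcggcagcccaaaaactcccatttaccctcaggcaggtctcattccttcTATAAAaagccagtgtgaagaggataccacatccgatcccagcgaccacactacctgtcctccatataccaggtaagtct
Flg (chr3:93273296-93273595, plus strand): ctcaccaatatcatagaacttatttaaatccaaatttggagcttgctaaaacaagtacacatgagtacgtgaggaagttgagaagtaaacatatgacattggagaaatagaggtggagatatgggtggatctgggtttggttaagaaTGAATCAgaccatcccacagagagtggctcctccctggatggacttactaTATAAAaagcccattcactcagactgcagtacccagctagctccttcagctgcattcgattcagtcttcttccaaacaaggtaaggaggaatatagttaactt
Lce1a1 (chr3:92648258-92648557, minus strand): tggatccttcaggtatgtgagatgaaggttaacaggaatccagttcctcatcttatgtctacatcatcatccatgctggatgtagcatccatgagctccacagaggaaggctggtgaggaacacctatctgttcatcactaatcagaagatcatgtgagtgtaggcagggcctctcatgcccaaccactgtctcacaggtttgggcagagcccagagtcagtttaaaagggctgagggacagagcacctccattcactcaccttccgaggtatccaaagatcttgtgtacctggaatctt
Lce1a2 (chr3:92670266-92670565, minus strand): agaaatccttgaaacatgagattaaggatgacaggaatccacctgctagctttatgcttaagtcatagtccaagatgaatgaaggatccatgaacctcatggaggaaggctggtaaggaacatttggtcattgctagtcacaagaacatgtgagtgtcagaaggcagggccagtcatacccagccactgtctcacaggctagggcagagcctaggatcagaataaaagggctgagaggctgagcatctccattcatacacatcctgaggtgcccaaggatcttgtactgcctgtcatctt

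Both motifs were found in the Lor, Ivl, Sprr1b and Flg windows and neither in the windows of Lce1a1 and Lce1a2. With the start base at 0, the first base of TGANTCA lay at -48 in Lor, -116 in Ivl, -111 in Sprr1b and -103 in Flg. That of TATAAA lay at -27 in Lor, -29 in Ivl, -30 in Sprr1b and -53 in Flg. On both strands, TGANTCA was present in 16 of the 43 windows, against 7.81% of all 32851 windows of the table. It was in 7 of the 8 Sprr windows, 0 of the 14 Lce windows and 9 of the 21 others. These are counts of windows and not of genes or separate sites. Dmkn windows starting at 30763506 and 30763508 held the same site, at -89 and -91, and it was counted for each window. TATAAA was in 16 of the 43 windows, against 13.6% of all windows. It was in all 8 Sprr windows, 2 of the 14 Lce windows and 6 of the 21 others. In all, 11 motifs were searched, and matches of different motifs were allowed to share bases. AACNGGTT (Grainyhead factors) was in 0 of 43 windows against 2.09% of all windows, CACCC (Klf factors) in 25 against 57.5%, CCAAT in 14 against 37.4%, TGTTTAC (Fox factors) in 2 against 3.65%, and TTGCNNCAA (C/EBP factors) in 1 against 2.08%. GCCCAGGC (AP-2 factors) was in 1 against 3.68%, TGACATCA in 3 against 3.62%, GTTTAAAC in 0 against 0.469% and TGTTTGC in 0 against 5.07%. A match is a run of letters and not a measured binding site, and a window without one says only that the letters are absent from those 300 bases. Windows of the same family were compared in pairs by gapped alignment. Over 45 Lce1 pairs, the median share of the 300 bases that aligned to the same base was 70%. It was 67.2% over 6 Lce3 pairs and 61.7% over 28 Sprr pairs. For the pair of Lce1a1 and Lce1a2 the share was 76.3%. Windows of unrelated genes were not aligned, so these shares alone do not measure how related the windows are.

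Values are MAS5 signals on a linear scale, and changes are on the scale of log2(signal + 25.9), which understates changes of dim probe sets. The brightest probe set stood for a gene that had more than 1. Signals are compared between stages, as those of 1 probe set or as a sum over the probe sets of a fixed marker list, and no gene's level is set against another's. The first 4 stages (12 arrays) and the last 4 stages (8 arrays) formed separate sets, with array medians of 67.2 to 91.1 in the first and of 156 to 178 in the last. The step from E10.5 into E12.5 therefore cannot be told apart from the array set. Replicate arrays correlated at 0.978 to 0.991. In RNA of whole embryos, more cells of a type and more RNA per cell cannot be told apart. The suprabasal keratins Krt1 and Krt10, which define stratified epidermis, were measured in every sample. Krt1 was at 11.3 to 29.4 at E7.5, 96.9 to 113 at E12.5, 1142 to 1339 at E14.5, 12898 to 15489 at E16.5 and 23122 to 25426 at E18.5.

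The set as a whole was high late in gestation, and its members rose in steps and not together. The highest stage mean was at E18.5 for 35 of the 43 genes and at E16.5 for the other 8, which were Casp14, Cnfn, Hrnr, Lce3f, Sprr1a, Sprr1b, Sprr2f and Tgm1. The share of all genes with a highest mean at these stages was not counted, and the late arrays had higher medians. Some of these genes were nearly flat, with means at E14.5 and E16.5 of 26.7 and 35.6 for Sprr2f and 226 and 242 for Casp14. Of the 43 genes, 38 were tested, having a signal above the array median on at least 2 arrays. Abca12, Lce1g, Sprr2f, Sprr2i and Sprr2j-ps did not reach it. Of the 38, 21 passed only through arrays of E16.5 or E18.5, so the counts over the 38 favour late rises. Counts over all 43 genes without the filter are given with them. A gene was called where limma's two-sided adjusted p, over all genes tested, was under 0.05 and the change was at least 2-fold. In E18.5 against E12.5, 35 of the 38 were called higher, against 15.2% of all genes tested. By limma 0 were called lower (6.44% of all genes), and 0 were lower at an unadjusted p under 0.05. Over all 43 genes without the signal filter, 38 were higher, against 13.9% of all genes. The median change of the 38 was 4.83, against -0.09 for all genes tested.

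**Figure D1:**
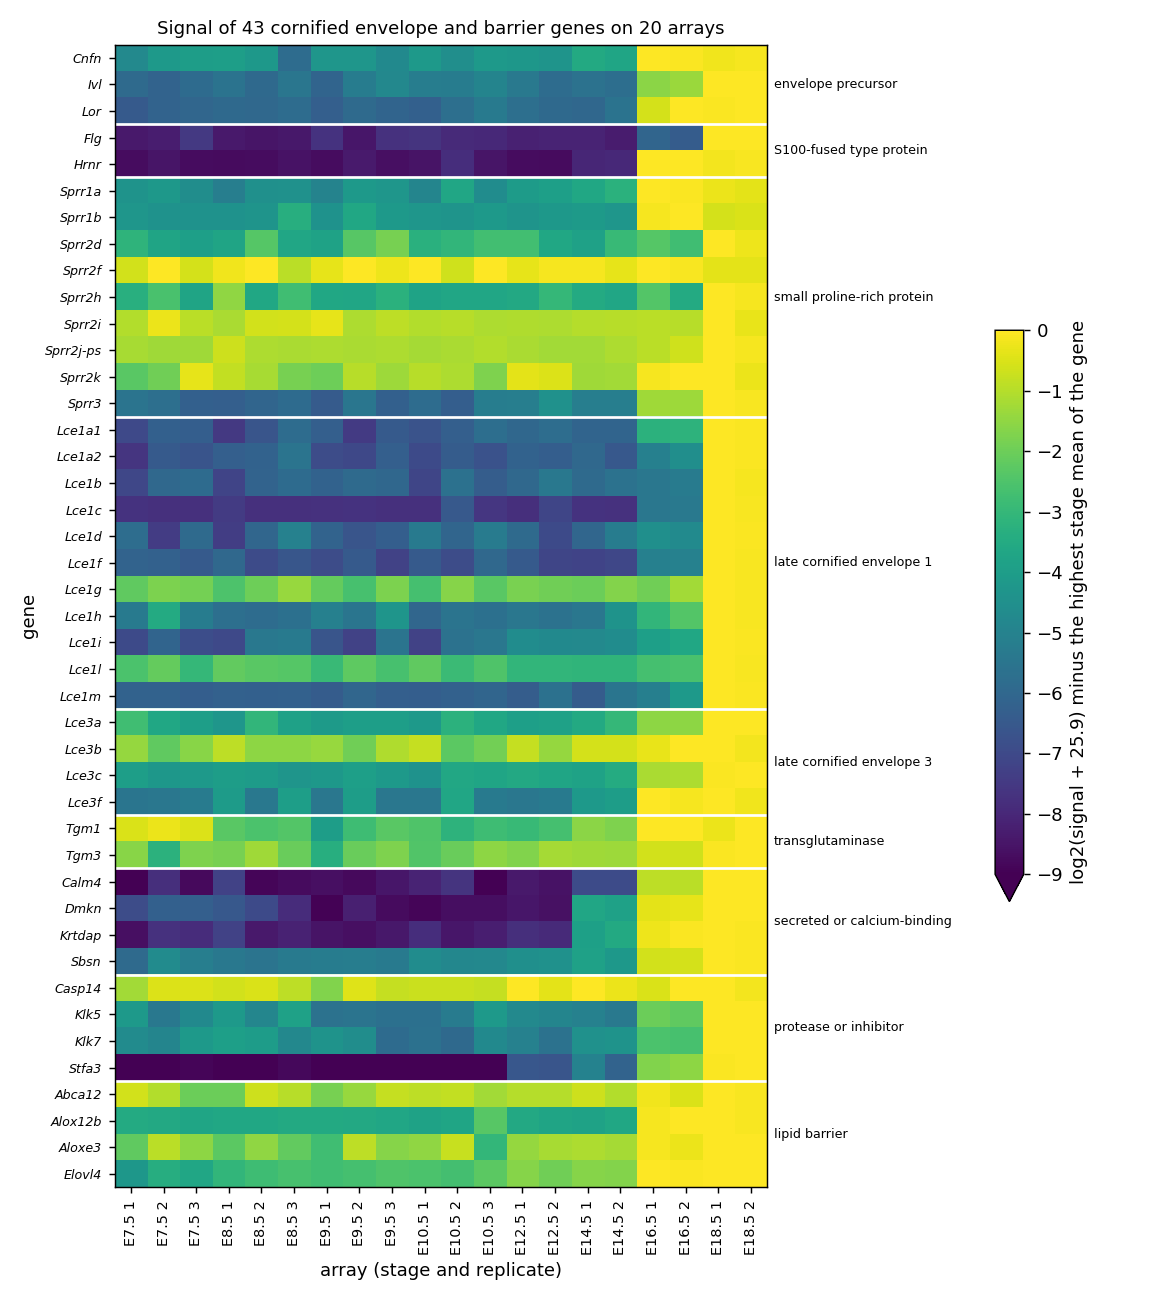
Signal of each of the 43 genes (rows, grouped by role) on each of the 20 arrays (columns, E7.5 to E18.5), as log2(signal + 25.9) minus the highest stage mean of that gene (each row has its own zero, and the lowest colour also covers values below the scale). Most rows turn yellow at E16.5 or E18.5, and rows such as Sprr2f and Casp14 are near their highest value from the start.

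The calls in the steps up to E18.5 were partly of different genes. In E14.5 against E12.5, 4 of the 38 were called higher, against 3.28% of all genes, and 0 lower (0.37%). Without the filter 2 of the 43 were higher in that step, against 2.47% of all genes. In E16.5 against E14.5, 27 of the 38 were higher, against 3.6% of all genes, and in E18.5 against E16.5, 20 of the 38 were higher, against 3.52%. By limma 0 were lower in either of these steps (0.178% and 0.776% of all genes), and 0 at an unadjusted p under 0.05 in any of the 3. The count of 4 in the first step was 2 without E12.5 replicate 1, E12.5 replicate 2 or E14.5 replicate 1, and 6 with the late array set fitted alone, where Lce3f (1.29, adjusted p = 0.00025) and Tgm1 (1.14, adjusted p = 0.0011) were also called. Without the filter the counts of the 43 genes in the later steps were 27 (2.95% of all genes) and 21 (3.15%). The median change of the 38 was 2.12 in E16.5 against E14.5, where that of all genes was -0.02, and 1.21 in E18.5 against E16.5, where that of all genes was -0.05. Of the 38, 14 were called higher in both of these steps, 13 only in E16.5 against E14.5, 6 only in E18.5 against E16.5 and 5 in neither. The same split was not counted over all genes. A gene that was not called in a step was not shown to be unchanged there. By a descriptive rule, the first stage with a mean of at least 10% of the highest stage mean was E16.5 for 20 of the 43 genes and E18.5 for 8. This rule was not applied to all genes.

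**Figure D2:**
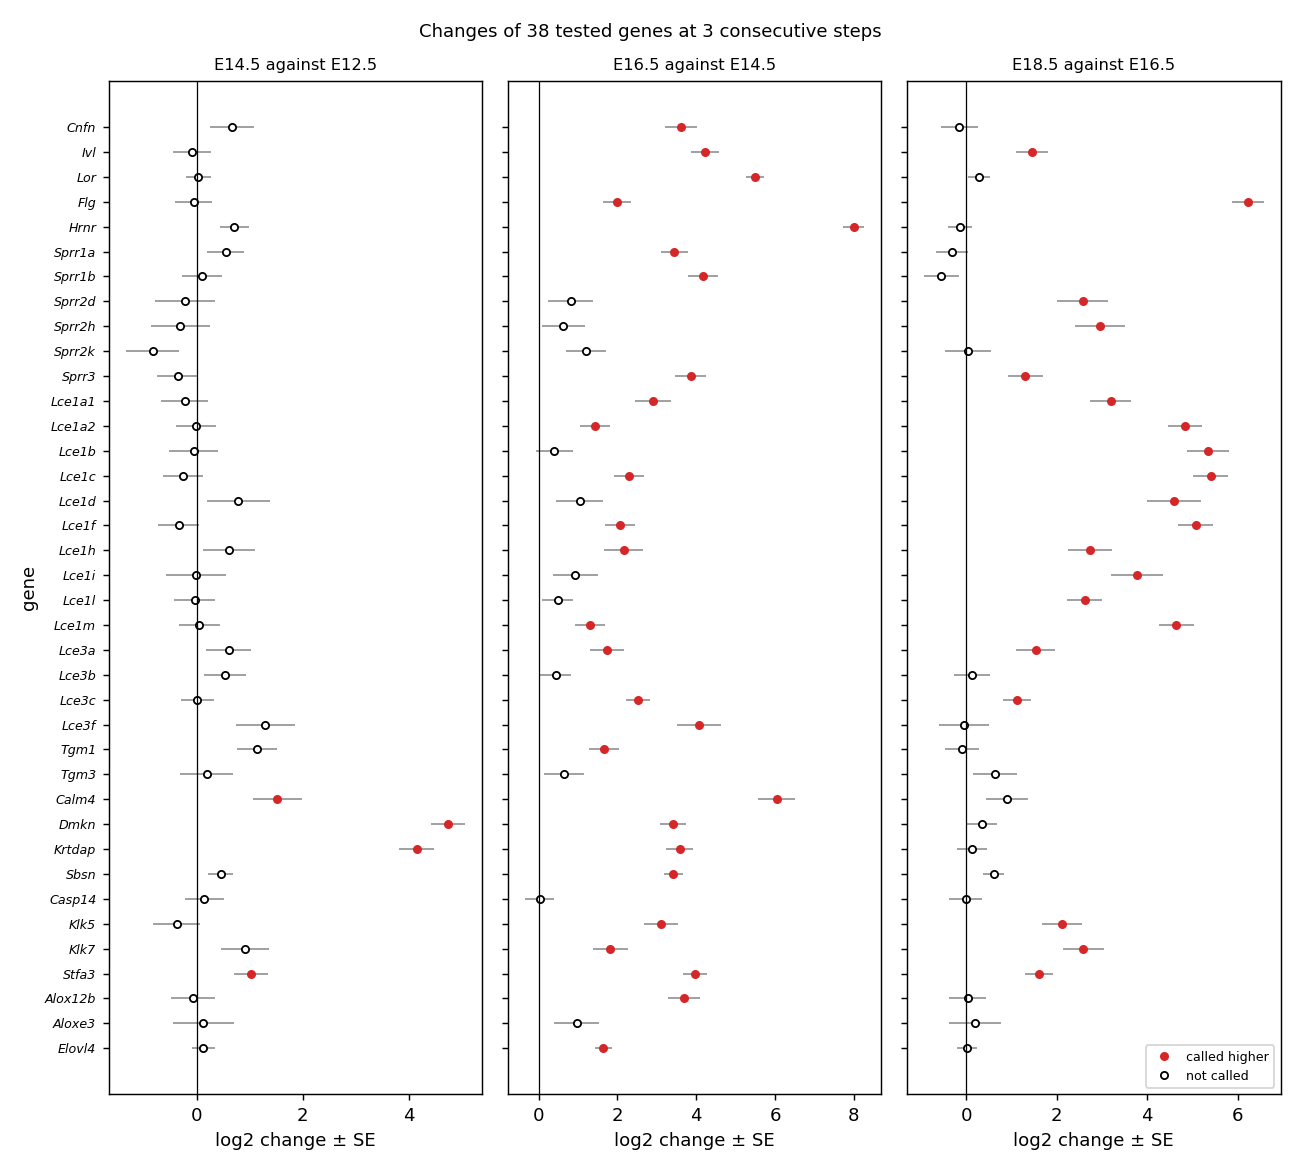
Log2 change ± SE of each of the 38 tested genes in E14.5 against E12.5, E16.5 against E14.5 and E18.5 against E16.5, with filled points for genes called higher and open points for the rest. Dmkn and Krtdap are the far points of the first step, Hrnr of the second, and Flg with the Lce1 genes of the third.

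Among the secreted genes, Dmkn and Krtdap rose at E14.5. Dmkn encodes dermokine and Krtdap a keratinocyte differentiation-associated protein, both secreted by suprabasal keratinocytes. Krtdap was at 23.7 and 19.1 at E12.5, 723 and 916 at E14.5, 9406 and 10642 at E16.5 and 11324 and 10634 at E18.5. The arrays of E12.5, E14.5 and E16.5 did not overlap. Krtdap rose by 4.15 ± 0.33 (log2 change ± SE, limma adjusted p = 1.8e-07) in E14.5 against E12.5 and by 3.58 ± 0.33 (adjusted p = 4.9e-07) in E16.5 against E14.5. Dmkn was at 12.9 and 9.30 at E12.5, 1024 and 906 at E14.5, 10276 and 10729 at E16.5 and 13534 and 13319.8 at E18.5, already raised on both E14.5 arrays. It rose by 4.74 ± 0.33 (adjusted p = 3e-08) in E14.5 against E12.5 and by 3.41 ± 0.33 (adjusted p = 5.8e-07) in E16.5 against E14.5. Sbsn (suprabasin), their neighbour on chromosome 7, changed by 0.45 ± 0.24 in the earlier step (adjusted p = 0.28, not called) and rose by 3.42 ± 0.24 in E16.5 against E14.5 (adjusted p = 9.6e-09). It was at 409 and 435 at E12.5, 673 and 511 at E14.5, 6413 and 6643 at E16.5 and 10205 and 9699 at E18.5. That probe set is marked for sequence shared with other transcripts. A Sbsn probe set without such a mark was at 4.41 and 4.77 at E12.5 and 37.1 and 28.0 at E14.5. The remaining Sbsn probe set, also marked, was at 389 and 449.7 at E12.5 and 615 and 569 at E14.5.

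Calm4, a calmodulin-like calcium-binding protein of skin, was at 21.7 and 16.0 at E12.5, 102 and 103 at E14.5, 8527 and 8299 at E16.5 and 15988 and 15565 at E18.5. Its main change was 6.04 ± 0.47 in E16.5 against E14.5 (adjusted p = 3.9e-08). The rise of 1.52 ± 0.47 in E14.5 against E12.5 (adjusted p = 0.042) was lost without any 1 of the 4 arrays, with adjusted p of 0.14 to 0.21. It was also lost under both other pseudocounts, both other scalings and without the filter. In E18.5 against E16.5 these genes changed by 0.91 ± 0.47 (Calm4), 0.35 ± 0.33 (Dmkn), 0.13 ± 0.33 (Krtdap) and 0.61 ± 0.24 (Sbsn), none of which was called.

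**Figure D3:**
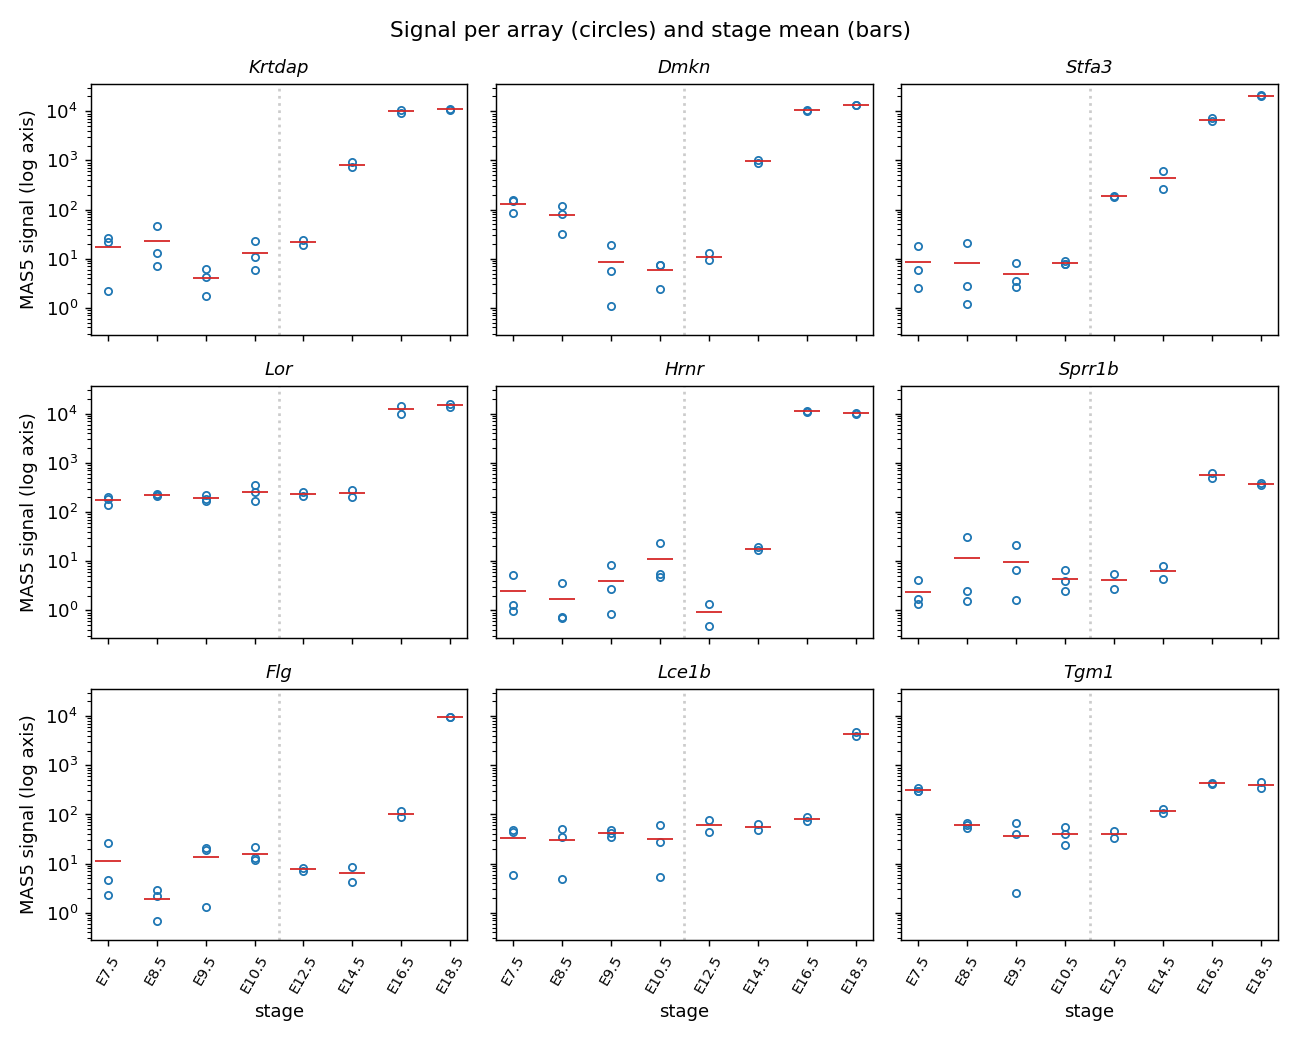
MAS5 signal (log axis) of 9 genes on each array (circles) by stage, with the stage mean (bars) and a dotted line between the array sets of E7.5 to E10.5 and E12.5 to E18.5. Krtdap and Dmkn are already raised at E14.5, Lor, Hrnr and Sprr1b first at E16.5, and Flg and Lce1b are highest by far at E18.5, while Tgm1 is also high at E7.5.

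The envelope precursors Lor, Ivl and Cnfn were raised at E16.5. Loricrin is the most abundant protein of the mature envelope. Lor was at 9894 and 14577 at E16.5, against 203 and 287 at E14.5, a rise of 5.49 ± 0.24 (limma adjusted p = 1.1e-11). At E18.5 it was at 14003 and 15396, and the change against E16.5 was 0.29 ± 0.24 (adjusted p = 0.5, not called). Of its 2 other probe sets, 1 was at 12971 and 12829 at E18.5, against 67.1 and 38.8 at E14.5, and the last at 117 and 141 at E18.5, against 56.6 and 37.1 at E14.5. Involucrin forms the scaffold on which the envelope is built. Ivl was at 14.2 and 10.8 at E14.5, 635 and 750.0 at E16.5 and 1938 and 1937 at E18.5. It rose by 4.23 ± 0.36 (adjusted p = 1.2e-07) in E16.5 against E14.5 and by 1.46 ± 0.36 (adjusted p = 0.0074) in E18.5 against E16.5. The later call was lost without E16.5 replicate 1 (0.074), E18.5 replicate 1 (0.058) or E18.5 replicate 2 (0.062), and with the smaller pseudocount (0.16). Cnfn (cornifelin) was at 1842 and 1742 at E16.5, against 130.4 and 114 at E14.5, a rise of 3.62 ± 0.41 (adjusted p = 5.7e-06). Its E18.5 arrays, at 1569 and 1655, lay below those of E16.5 without a called change (-0.15 ± 0.41, adjusted p = 0.87).

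The S100-fused type proteins Hrnr and Flg, neighbours on chromosome 3, were raised at different steps. Hornerin and profilaggrin are stored in keratohyalin granules, and the filaggrin cut from profilaggrin bundles keratins and is later broken down to the amino acids that hold water in the stratum corneum. Hrnr was at 1.34 and 0.476 at E12.5, 16.9 and 19.2 at E14.5, 11003 and 11343 at E16.5 and 9973 and 10394 at E18.5. It rose by 8.00 ± 0.27 in E16.5 against E14.5 (adjusted p = 1.9e-13), and the later change was -0.13 ± 0.27 (adjusted p = 0.82, not called). Flg was at 8.74 and 4.20 at E14.5, 116 and 88.7 at E16.5 and 9434 and 9513 at E18.5. It rose by 1.99 ± 0.35 in E16.5 against E14.5 (adjusted p = 0.00084) and by 6.22 ± 0.35 in E18.5 against E16.5 (adjusted p = 8.8e-10). The earlier change of Flg was 0.90 with the larger pseudocount, under 2-fold. The starts of Flg and Hrnr lay 46.2 kb apart.

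The small proline-rich proteins are crosslinked between other precursors in the envelope. Of the 9 Sprr genes 6 were tested, and 3 rose in each of the last steps. Sprr1b was at 502 and 610.2 at E16.5, against 8.14 and 4.40 at E14.5, a rise of 4.18 ± 0.38 (limma adjusted p = 3.7e-07). At E18.5 it was at 359.9 and 383, below both E16.5 arrays, but the change of -0.55 ± 0.38 was not called (adjusted p = 0.4). Sprr1a was at 1615 and 1526 at E16.5, against 102 and 141 at E14.5, and rose by 3.45 ± 0.35 (adjusted p = 1.4e-06). Its E18.5 arrays were at 1301 and 1223. Sprr3, known from oral and oesophageal epithelium as well, was at 42.5 and 42.2 at E14.5, 973 and 952 at E16.5 and 2575 and 2278 at E18.5. It rose in both steps, by 3.86 ± 0.38 (adjusted p = 1.1e-06) and 1.31 ± 0.38 (adjusted p = 0.024). The later rise was lost without any 1 of the E16.5 and E18.5 arrays, with adjusted p of 0.097 to 0.15, and with the smaller pseudocount (0.25).

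Of the 3 tested Sprr2 genes, Sprr2d and Sprr2h rose in E18.5 against E16.5. Sprr2d was at 489 and 358 at E18.5, against 59.6 and 39.4 at E16.5, a rise of 2.58 ± 0.57 (adjusted p = 0.0034). Sprr2h was at 376 and 317 at E18.5, against 43.5 and 6.69 at E16.5, a rise of 2.96 ± 0.55 (adjusted p = 0.00075), on a probe set marked as sharing sequence with related genes. Neither was called in E16.5 against E14.5, with changes of 0.82 ± 0.57 and 0.63 ± 0.55. Sprr2k stayed within 8.59 to 181 on the 20 arrays and was not called in any of these comparisons. With the late array set fitted alone it was higher in E16.5 against E14.5 (1.21, adjusted p = 0.0035). Of the Sprr genes under the filter, Sprr2i was at 48.5 and 22.6 and Sprr2j-ps, a pseudogene, at 48.5 and 37.0 at E18.5, and Sprr2f stayed within 6.27 to 40.2 throughout. These signals are too low to follow at the precision of 2 arrays.

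The late cornified envelope proteins are small envelope precursors made late in differentiation, in a family of closely related genes. All 10 tested Lce1 genes rose in E18.5 against E16.5, by 2.62 (Lce1l) to 5.40 (Lce1c), and 6 of them also rose in E16.5 against E14.5. Lce1c was at 3.14 and 2.47 at E14.5, 113 and 118 at E16.5 and 6360.1 and 5557 at E18.5, with a rise of 2.30 ± 0.38 (limma adjusted p = 0.00045) in the earlier step and of 5.40 ± 0.38 (adjusted p = 1.3e-08) in the later. Lce1b was at 47.7 and 62.7 at E14.5, 74.4 and 87.5 at E16.5 and 4738 and 3907 at E18.5. The E14.5 and E16.5 arrays were close together for Lce1b (0.40 ± 0.47, adjusted p = 0.69, not called), and the E18.5 arrays were far above them (5.34 ± 0.47, adjusted p = 2.2e-07). Lce1a1 was at 53.7 and 52.5 at E14.5, 564 and 569 at E16.5 and 5599.6 and 5215 at E18.5. Its other probe set, without a mark for shared sequence, was at 6.59 and 36.0 at E14.5, 408 and 359.6 at E16.5 and 5878 and 5259 at E18.5. By the 10% rule above the first high stage of Lce1a1 was E16.5 on the probe set used, close to the threshold, and would be E18.5 on the other, as for Lce1a2. Lce1a2 was at 83.5 and 48.0 at E14.5, 175 and 265 at E16.5 and 7151 and 6548 at E18.5. In the earlier step Lce1a1 rose by 2.91 ± 0.45 and Lce1a2 by 1.43 ± 0.37, and in the later step by 3.20 ± 0.45 and 4.83 ± 0.37. The earlier rise of Lce1a2 (adjusted p = 0.018) was lost without E14.5 replicate 2 (0.18) or E16.5 replicate 2 (0.2), and with the smaller (0.068) and larger (0.93, under 2-fold) pseudocounts.

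The other Lce1 genes had the same order of stages. At E18.5, against E16.5, Lce1f rose by 5.07 ± 0.39, Lce1m by 4.64 ± 0.39, Lce1d by 4.59 ± 0.59, Lce1i by 3.76 ± 0.57, Lce1h by 2.74 ± 0.49 and Lce1l by 2.62 ± 0.39. The rises of Lce1h and Lce1m in E16.5 against E14.5 (2.16 ± 0.49 and 1.31 ± 0.39) were lost without E14.5 replicate 1 (adjusted p 0.14 and 0.37) or E16.5 replicate 2 (0.12 and 0.43). That of Lce1m was also lost after quantile normalization (0.089) and 75th percentile scaling (0.055) and with both other pseudocounts. The change of Lce1f in that step was called in the fit used here and was 0.91, under 2-fold, with the larger pseudocount. The other Lce1f probe set showed no rise there, at 29.6 and 40.5 at E14.5 and 22.7 and 44.0 at E16.5. At E18.5 it was at 449.6 and 399. Lce1d was called in E16.5 against E14.5 with the late array set fitted alone (1.04, adjusted p = 0.037). Lce1g, under the filter, was at 167 and 143 at E18.5, against 21.1 and 50.3 at E16.5. Of the Lce1 probe sets used, 5 of 11 carried a mark for sequence shared with other transcripts, so single Lce1 genes are uncertain where their neighbours were also high.

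The 4 Lce3 genes differed among themselves, with 3 higher in E16.5 against E14.5 and 2 in E18.5 against E16.5. Lce3f was at 3.92 and 6.49 at E12.5, 45.9 and 54.9 at E14.5, 1380.1 and 1149 at E16.5 and 1370.5 and 1092 at E18.5. It rose by 4.08 ± 0.55 in E16.5 against E14.5 (adjusted p = 5.3e-05), and its E16.5 and E18.5 arrays overlapped (-0.04 ± 0.55, adjusted p = 0.98). Lce3c was at 25.7 and 40.2 at E14.5, 305 and 315 at E16.5 and 678 and 728 at E18.5. Lce3c and Lce3a rose in both steps, by 2.52 and 1.74 in the earlier and by 1.12 and 1.53 in the later. Their later rises were lost without any 1 of the 4 arrays (adjusted p 0.084 to 0.13). They were also lost with the smaller pseudocount (0.16 for Lce3c and 0.17 for Lce3a). The later rise of Lce3c was under 2-fold with the larger pseudocount (0.97). The earlier rise of Lce3a was lost without E14.5 replicate 1 (0.14), E16.5 replicate 1 (0.059) or E16.5 replicate 2 (0.086), and with the smaller pseudocount (0.076). Lce3b was called only in E18.5 against E12.5 (1.11 ± 0.40, adjusted p = 0.025), and not without E12.5 replicate 2 (0.2) or E18.5 replicate 1 (0.14), or with the larger pseudocount (0.83, under 2-fold).

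The size of the later step was tested against that of the earlier step, as the change in E18.5 against E16.5 minus the change in E16.5 against E14.5. In this contrast the E16.5 mean enters both changes. The scale understates changes of dim probe sets, so an earlier change that starts from a dim E14.5 signal is made smaller. For such genes this favours a larger later change. Of the 38 genes, 6 had a larger later change, against 0.356% of all genes, and 14 a larger earlier change, against 0.783%. Without the filter 6 and 14 of the 43 genes were called, against 0.308% and 0.605% of all genes. The 6 were Flg and the Lce1 genes Lce1a2, Lce1b, Lce1c, Lce1f and Lce1m. The difference was 4.23 ± 0.61 for Flg (limma adjusted p = 0.00051) and 4.94 ± 0.82 for Lce1b (adjusted p = 0.002). The 14 were Alox12b, Calm4, Cnfn, Dmkn, Elovl4, Hrnr, Ivl, Krtdap, Lce3f, Lor, Sbsn, Sprr1a, Sprr1b and Stfa3. The difference was -8.13 ± 0.47 for Hrnr (adjusted p = 4e-09) and -5.20 ± 0.41 for Lor (adjusted p = 3.2e-07). The count of 20 genes fell to 7 without E16.5 replicate 1, 10 without E16.5 replicate 2 and 13 without E18.5 replicate 1, and was 5 with a 4 times smaller pseudocount.

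Along chromosome 3, neighbouring genes differed in their steps. Hrnr and Lor, at the ends of the cluster, had the larger earlier changes, and Flg, 46.2 kb from Hrnr, a larger later one. On the scale used, the tested Lce1 genes between Ivl and Lce3a had larger later changes in each case. The difference was called for 4 of them, and Lce1m, beyond the Lce3 genes, also had a called difference. Lce3f, next to Lce1m, had a called difference the other way. These are values of single genes with SE, and no test of position was made. Because the scale understates changes of dim probe sets, which step was larger is uncertain for genes that were dim at E14.5. Stage means at E14.5, E16.5 and E18.5 were 0.588, 11.2 and 202 for Lce1l, and 55.2, 80.97 and 4322 for Lce1b.

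**Figure D4:**
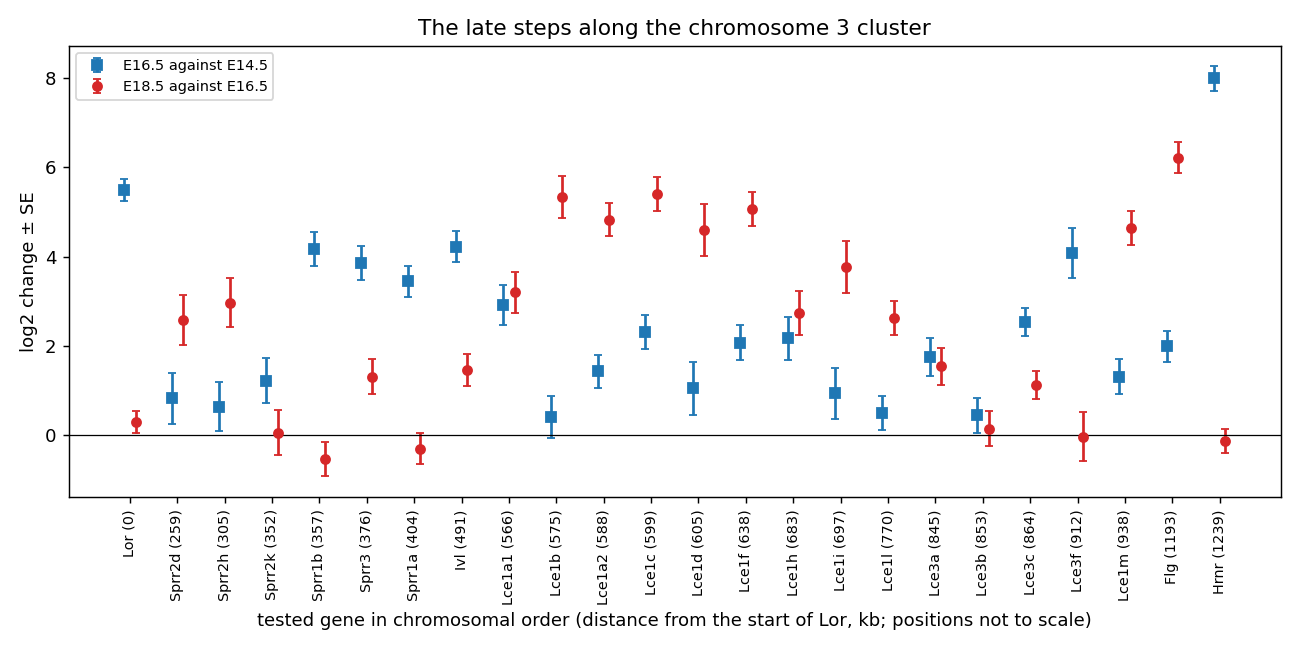
Log2 change ± SE in E16.5 against E14.5 (squares) and in E18.5 against E16.5 (circles) of the tested chromosome 3 genes, in chromosomal order, with the distance from the start of Lor in kb beside each name. Circles lie above squares for the Lce1 genes and Flg, and squares above circles for Lor, Sprr1a, Sprr1b, Ivl, Lce3f and Hrnr.

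Transglutaminases crosslink the precursors. Tgm1, the membrane-bound enzyme of keratinocytes, was at 439 and 421 at E16.5, against 128 and 109 at E14.5, a rise of 1.66 ± 0.38 (limma adjusted p = 0.0068). The call was lost without E14.5 replicate 2 (0.066) and E16.5 replicate 2 (0.052), and with the smaller pseudocount (0.086). At E18.5 it was at 352 and 455, overlapping E16.5. Tgm3, which is activated by cleavage, had 2 probe sets. The probe set not used, which was not tested alone, was at 8.69 and 39.03 at E12.5 and 74.96 and 79.2 at E14.5. It was at 167 and 169 at E16.5 and 319 and 361 at E18.5, with the arrays of these stages apart. The probe set used was at 312 and 338 at E18.5, against 81.0 and 124 at E12.5. On it Tgm3 was called in that span only (1.47 ± 0.49, adjusted p = 0.017). Without E12.5 replicate 1 (0.12), E18.5 replicate 1 (0.056) or E18.5 replicate 2 (0.076), or with the smaller pseudocount (0.072), it was not called.

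The proteases Klk5 and Klk7 cleave the desmosomes of the stratum corneum so that squames are shed. Klk7 was at 61.7 and 64.7 at E14.5, 297 and 280.1 at E16.5 and 1879 and 1846 at E18.5, and Klk5 at 18.6 and 9.90 at E14.5, 336 and 299 at E16.5 and 1458 and 1456 at E18.5. Both rose in both steps, Klk5 by 3.10 ± 0.44 and 2.11 ± 0.44 and Klk7 by 1.82 ± 0.45 and 2.59 ± 0.45. The rise of Klk7 in E16.5 against E14.5 (adjusted p = 0.013) was lost without any 1 of the 4 arrays (0.07 to 0.087) and with the smaller pseudocount (0.087), and that of Klk5 in E18.5 against E16.5 with the smaller pseudocount (0.059). Casp14, which processes filaggrin, gave conflicting values on its 2 probe sets. The brighter, marked for shared sequence, stayed within 51.8 to 331 on all 20 arrays and was not called in any comparison. The other was at 3.28 and 4.14 at E14.5, 330.4 and 314 at E16.5 and 1063 and 957 at E18.5. With that probe set, chosen after the values were seen, the gene rose by 3.56 ± 0.39 in E16.5 against E14.5 (limma adjusted p = 4e-06) and by 1.57 ± 0.39 in E18.5 against E16.5 (adjusted p = 0.0088).

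Stfa3, a stefin that inhibits cysteine proteases, was at 7.64, 9.03 and 7.70 at E10.5, 193 and 182 at E12.5, 617 and 267 at E14.5, 6344 and 7236 at E16.5 and 20063 and 21346 at E18.5. From E12.5 on, the arrays of each stage lay above those of the stage before. It rose by 3.97 ± 0.32 in E16.5 against E14.5 (adjusted p = 5.4e-08) and by 1.61 ± 0.32 in E18.5 against E16.5 (adjusted p = 0.0013). The last of these was lost with the smaller pseudocount (0.058). The rise of 1.03 ± 0.32 in E14.5 against E12.5 (adjusted p = 0.042) was lost without E14.5 replicate 1 (0.54), E12.5 replicate 1 (0.16) or E12.5 replicate 2 (0.2), and under both other pseudocounts, the 75th percentile scaling and without the filter. Neutrophil markers were higher in the earlier of these steps. The summed signal of 8 such markers was 401 to 689 at E10.5, 3148 to 3198 at E12.5, 11115 to 12052 at E14.5, 29146 to 29465 at E16.5 and 40039 to 46296 at E18.5. Of the 8, 6 were called higher in E12.5 against E10.5 (10.6% of all genes), with a median change of 1.95, where stage and array set cannot be told apart. In E14.5 against E12.5, 5 were called higher (3.28% of all genes), and in E16.5 against E14.5 also 5 (3.6%). In E18.5 against E16.5, 0 of the 8 were called by limma (3.52% of all genes were higher). Their median change there was 0.44, and 2 were higher at an unadjusted p under 0.05. In E10.5 against E9.5, 2 of the 8 were called higher (3.66% of all genes were called either way). At E10.5, 2 of the 8 were above the array median on all arrays of the stage. S100a9 and Camp, of the same list, were at 1.49 to 6.76 and 5.85 to 9.65 there. S100a8 and S100a9 are also made by keratinocytes, and the part of neutrophils in the level of Stfa3 was not tested.

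The lipid genes supply the ceramides of the barrier. Alox12b and Aloxe3 oxidise linoleate in acylceramides in turn, Elovl4 makes the ultra-long fatty acids and Abca12 loads lipid into lamellar granules. Alox12b was at 329.7 and 368 at E16.5, against 1.75 and 4.89 at E14.5, a rise of 3.68 ± 0.41 (limma adjusted p = 4.4e-06), and at 379 and 339 at E18.5. Elovl4 was at 1750.2 and 1648 at E16.5, against 533 and 521 at E14.5, a rise of 1.64 ± 0.22 (adjusted p = 3.7e-05). Neither was called in E18.5 against E16.5 (changes of 0.04 and 0.02). Aloxe3 was at 263 and 239 at E16.5, against 122 and 111 at E14.5, and was not called in any late comparison (0.96 ± 0.58, adjusted p = 0.35). In E18.5 against E12.5 it was called with the late array set fitted alone (1.29, adjusted p = 4.4e-05) or with a replicate block (1.29, adjusted p = 0.037). Abca12, under the filter, was at 112 and 97.9 at E18.5, against 39.3 and 38.5 at E12.5.

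Before E12.5 few of the genes moved. In E8.5 against E7.5, 2 of the 38 were lower, against 4.93% of all genes, and in E9.5 against E8.5 2 were lower (1.68%). In E10.5 against E9.5 0 were called by limma, against 3.66% called either way, and 1 had an unadjusted p under 0.05. The first count was 4 without E8.5 replicate 1 and 1 without E8.5 replicate 3, and the second was 1 without E8.5 replicate 3. Over E10.5 against E7.5, 3 were lower (7.49%) and 1 higher (16%). Without the filter, 1 of the 43 genes was lower in E8.5 against E7.5 (4.01% of all genes), 2 in E9.5 against E8.5 (1.34%), 0 were called in E10.5 against E9.5 (2.98%), and 3 were lower (5.9%) and 1 higher (12.8%) over E10.5 against E7.5. In that span 2251 genes in all were higher and 1052 lower, or 1880 and 1455 with arrays scaled to the 75th percentile. Tgm1 was at 67.5, 52.4 and 60.8 at E8.5, against 295, 352 and 302 at E7.5, and fell by 1.99 ± 0.31 (limma adjusted p = 2.8e-05). Summed markers of trophoblast were 1769 to 2027 at E8.5, against 6359.8 to 7721 at E7.5, over 6 genes. Those of visceral and yolk sac endoderm were 24926 to 26931, against 76669.5 to 89304, over 8 genes, and the part of either tissue in the level of Tgm1 was not tested. Dmkn was at 85.6, 154 and 147 at E7.5, 119.9, 79.6 and 31.6 at E8.5, 1.10, 19.3 and 5.71 at E9.5 and 2.47, 7.45 and 7.47 at E10.5. It fell by 1.51 ± 0.27 in E9.5 against E8.5 (adjusted p = 0.00039). Klk5 fell by 1.33 ± 0.36 in the same step (adjusted p = 0.014). Lce1h was lower by 1.07 ± 0.40 in E8.5 against E7.5 (adjusted p = 0.042), with E8.5 arrays at 17.6 to 21.98, against 36.8, 192 and 39.4 at E7.5, where replicate 2 stood apart. It was also called lower in E10.5 against E7.5, but not without E7.5 replicate 2 (adjusted p = 0.25) or E10.5 replicate 1 (0.091), or with the larger pseudocount (-0.55, under 2-fold). Elovl4 rose by 1.27 ± 0.18 in E10.5 against E7.5 (adjusted p = 3.3e-06), and its change was under 2-fold after quantile normalization (0.89) and with the larger pseudocount (0.91).

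Across the array sets, in E12.5 against E10.5, 2 of the 38 were higher, against 10.6% of all genes, and 2 of the 43 without the filter (9.21%). They were Stfa3 (2.65 ± 0.29, limma adjusted p = 5.1e-07) and Lce1i (1.41 ± 0.52, adjusted p = 0.033), and stage and array set cannot be told apart there. Without E10.5 replicate 1 or E12.5 replicate 2, 1 was called. In that step 1484 genes in all were higher and 284 lower, and the counts were 759 and 557 after quantile normalization and 943 and 884 after 75th percentile scaling. The median change of all genes was 0.12, -0.11 and -0.11 in these 3 scalings, and that of the 38 genes 0.21 in the first.

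Other genes of the same pathways were higher in unequal shares at the same steps. Of all genes tested, 3.28% were higher in E14.5 against E12.5, 3.6% in E16.5 against E14.5 and 3.52% in E18.5 against E16.5. Of 12 suprabasal keratin and desmosome genes, 8 were higher in E14.5 against E12.5, 10 in E16.5 against E14.5 and 1 in E18.5 against E16.5, with 1 lower. In E14.5 against E12.5 Krt1 rose by 3.27 ± 0.35, Krt10 by 2.10 ± 0.17 and the desmosomal cadherin Dsc1 by 2.94 ± 0.30. Krt77, a keratin of suprabasal cells, was at 201 to 222 at E18.5, against 6013 to 6224 at E16.5, and fell by 4.70 ± 0.45 (limma adjusted p = 6.1e-07) while Krt2 rose by 2.93 ± 0.39. Of 11 other tested envelope precursors, 2, 8 and 7 were higher in these 3 steps. Kprp, a keratinocyte proline-rich protein, rose by 3.56 ± 0.35 in E18.5 against E16.5, and Csta1, a cystatin, by 3.60 ± 0.32 in E16.5 against E14.5 and 2.30 ± 0.32 in E18.5 against E16.5.

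Of 20 barrier lipid genes, 1, 10 and 0 were higher in the 3 steps. Acer1, an alkaline ceramidase, rose by 3.06 ± 0.47 and Lipm, a lipase, by 3.25 ± 0.38 in E16.5 against E14.5. Of 14 desquamation genes 3, 6 and 1 were higher, with Asprv1 (a protease that cleaves profilaggrin) at 4.14 ± 0.40 and Spink5 (the inhibitor of the kallikreins) at 3.82 ± 0.34 in E16.5 against E14.5, and Cdsn (corneodesmosin) at 2.03 ± 0.53 in E18.5 against E16.5. Of 16 regulators 3, 4 and 0 were higher. Grhl1 rose by 1.20 ± 0.35 in E14.5 against E12.5, and Klf4 by 1.04 ± 0.22 and Ovol1 by 1.37 ± 0.34 in E16.5 against E14.5. Of 9 basal genes 1, 3 and 0 were higher, and of 7 tight junction genes 1, 2 and 0. Where 0 were called by limma in E18.5 against E16.5, 6 lipid genes, 4 regulators, 2 basal genes and 1 tight junction gene were higher at an unadjusted p under 0.05. No test between lists was made.

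**Figure D5:**
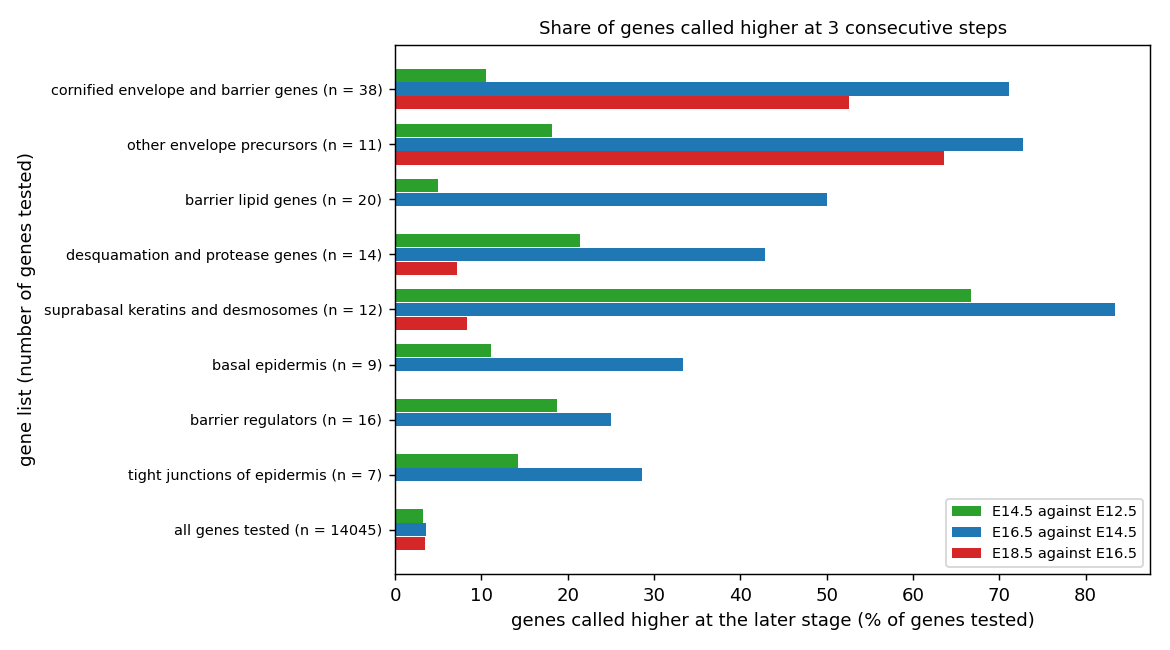
Share of genes called higher at the later stage, in percent of genes tested, for the barrier genes, 7 lists of related genes and all genes tested, with a bar for each of 3 steps. The last step stands at 52.6% for the barrier genes and 3.52% for all genes tested, and that of the other envelope precursors, 7 of 11, is the only list bar of that step drawn from more than 1 gene.

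Markers of other epithelia and cells moved in the same steps, and some of their sums were also high at early stages. Of 7 tested periderm, oral and oesophageal markers, 4 were higher in E16.5 against E14.5 (3.6% of all genes). Their sum over 8 genes was 4200 to 5269 at E9.5, 2386 to 2429.9 at E14.5 and 6789 to 6809 at E16.5. Krt13 rose by 4.32 ± 0.40. Of 8 tested hair follicle markers, 4 were higher in E18.5 against E16.5 (3.52% of all genes). In E18.5 against E12.5, 5 of them were higher and 2 lower. Their sum over 10 genes was 4076 to 4368 at E18.5, against 1918 to 2028 at E16.5 and 3667 to 3943 at E10.5, so it was not particular to the late stages. Of 5 tested mast cell markers, 4 were higher in E16.5 against E14.5 (3.6% of all genes). The part of these tissues in the levels of the barrier genes was not tested.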

How the data were processed

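RNA of 20 pools of whole embryos was labelled in a one-cycle biotin protocol and hybridised to Affymetrix Mouse Genome 430 2.0 arrays, per the labels' protocols. The deposited values are signal intensities that the authors computed with MAS5, per the submitters' processing notes, and its version is not given in the sources used here. The trimmed mean, without the lowest and highest 2% of values, was 500 on each array, which makes the arrays comparable in that mean only. For arrays there is no depth in counts, and precision is set by how many there are.

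Of 45101 probe sets, 34958 had a single gene symbol in the platform annotation and were used, 932 had several and 9211 none. For each gene the probe set with the highest mean was kept (8 of the 43 genes had more than 1, and 11 used a probe set marked _x, _s or _a for shared sequence). Signals were analysed as log2(signal + 25.9), with 25.9 taken from the arrays (the 25th percentile of each, then the median of these). Genes above the array median on at least 2 arrays were tested (14045 of 18194). Stage means were fitted over all 20 arrays with limma 3.58.1 in R 4.3.3 (eBayes with trend, 12 residual degrees of freedom), so stages share 1 estimate of the spread. The p-values were two-sided and adjusted by Benjamini-Hochberg over all genes tested. The fit was tested on simulated data.

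The genes and all gene lists were chosen with earlier results of these data known. Any of the 43 genes could be named, and of the other lists those with large called changes. Replicates took the numbers in the labels. Alternatives changed the scaling (quantile, 75th percentile), the pseudocount (smaller or larger by 4 times), the filter (none, or above each array's 75th percentile), the probe set (averaging those of a gene), the arrays fitted (an array set alone, or without 1 array), the minimum fold (none) and the model (a replicate block). The use of probe sets without a shared-sequence mark, the motifs kept for the text and the printed promoters were chosen after seeing the data. Promoter windows and positions were from RefSeq, build GRCm38.p6. The windows of Aloxe3, Lce1f and Sprr2j-ps were not used here.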

Additional observations from a re-analysis of the deposited data

Results flagged for a closer look

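Signal was found on 3 probe sets annotated to several Sprr2a genes at once, which no comparison above used. The first, of Sprr2a2 or Sprr2a1, had a mean of 102 at E18.5, against 16.0 at E16.5. The second, of Sprr2a2, Sprr2a3 or Sprr2a1, was at 3056 at E18.5, against 634 at E16.5. The last, again of Sprr2a2 or Sprr2a1, was at 2501 at E18.5, against 324 at E16.5. The second probe set was also at 367 to 486 on the E7.5 arrays, and the last at 223 to 307 there and at 12.7 to 77.3 at E8.5. Which of the Sprr2a genes the signal comes from cannot be told from these probe sets, and no change was tested.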

How the results depend on the processing

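In E16.5 against E14.5, 22 to 29 genes were higher under every alternative and 21 to 25 with an array left out, against 27 in the report. In E18.5 against E16.5 the counts were 14 to 21 and 16 to 17, against 20, and in E18.5 against E12.5 they were 26 to 38 and 33 to 34, against 35. The 26 were all of the 26 genes tested with the stricter filter, under which each gene tested kept its side of the threshold, and the 38 were of 43 genes without a filter. The counts of 0 in these comparisons and in E10.5 against E9.5 stayed 0. The smaller counts moved. In E8.5 against E7.5 (2 genes), 4 were called with the smaller pseudocount and with no minimum fold, and 1 with the larger pseudocount, with no filter, with the stricter filter and in the early array set alone. In E9.5 against E8.5 (2 genes), 0 were called with the larger pseudocount and 1 in the early array set alone. In E12.5 against E10.5 (2 genes), 1 was called with quantile normalization, 75th percentile scaling and either other pseudocount, and 4 with no minimum fold. In E14.5 against E12.5 (4 genes), 2 were higher with 75th percentile scaling, either other pseudocount and no filter, and 6 with the late array set alone, where Lce3f and Tgm1 were added. In E10.5 against E7.5 (4 genes), 2 were called with the larger pseudocount and 7 with no minimum fold. The difference between the late steps was called for 5 genes with the smaller pseudocount, against 20. With an array left out the ranges were 1 to 4, 1 to 3, 1 to 3, 2 to 3, 4 to 5 and 7 to 15 in the order just given. Fewer arrays widen the standard errors by construction, and the cause was not tested for the others. Casp14 in E18.5 against E16.5 was -0.01 on its brightest probe set and 1.57 on the probe set without a shared-sequence mark. Of 190 changes of single genes in 5 comparisons, 14 calls were lost with the smaller and 10 with the larger pseudocount, and 5 were gained with an array set fitted alone (Lce3f, Tgm1, Sprr2k, Lce1d and Aloxe3). Same-numbered replicates deviated together with correlations of -0.05 to 0.28, not over 0.1 in every pair, so the numbers were not taken to pair the samples. In the comparisons within E7.5 to E10.5, replicate 1 stood at 0.14 to 0.28, and replicates 2 and 3 at 0.03 to 0.09. The replicate 1 array also had the lowest median of its stage from E7.5 to E10.5. Whether the replicate 1 arrays shared a batch was not tested. With the replicate block 27 and 20 genes were higher in the last steps and 36 in E18.5 against E12.5, where Aloxe3 was also called, and no other call of a gene changed in those 5 comparisons. Signals near the background have no firm order, which limits what can be said of Sprr2f, Sprr2i, Sprr2j-ps, Lce1g and Abca12.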
